A study of Mus musculus with 8 samples.

Results

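Promoters with intermediate methylation were examined in samples labelled as type A spermatogonia of 6-day-old mice. They were selected on their measured level: a promoter ran from 1000 bases upstream to 100 bases downstream of a RefSeq start site of an autosomal protein-coding gene, held at least 10 cytosines in the table, and had a mean methylation level over the 8 samples of 20% or more and below 70%. The level of a cytosine is the share of its reads that remained C after bisulfite conversion, and the level of a promoter is the unweighted mean over its cytosines. Of 22348 promoters, 8465 held at least 10 cytosines, and 528 of these, belonging to 523 genes, lay between the limits. Another 7704 were below 20% and 233 were at 70% or above, while 3562 promoters held 1 to 9 cytosines and 10321 held none.

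The study compared germ cells of males whose mothers had or had not received arsenic in pregnancy. All animals came from C3H/HeN dams, the F0 generation, which drank tap water in the control group and tap water containing 85 ppm sodium arsenite from gestational day 8 to gestational day 18 in the arsenic group. The F1 sons were taken at postnatal day 6, and cells binding an antibody to CD49f (Itga6), a surface integrin, were separated magnetically, with 8 testes of 4 mice pooled per sample and 4 samples per group. DNA was analysed by reduced representation bisulfite sequencing (RRBS), in which the genome is cut at CCGG before bisulfite conversion, so that reads cluster in CpG-rich fragments. The deposited table held 2131605 cytosines, each covered at least 10 times in all 8 samples, and the reads on them summed to between 96428439 and 133406260 per sample, with a median coverage of 31 to 44.

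Methylation of a CpG is copied to the new strand when DNA is replicated, and a methylated promoter is usually silent. Most CpG-rich promoters stay free of methylation, and the free stretch usually ends at a shore where the CpG density drops. A level between the extremes can therefore arise along the window, when a free start site is averaged with a methylated flank, or at each cytosine, when some cells or only 1 parental allele carry the mark. Imprinted genes are the known case of the latter in body cells. In pooled bulk DNA, methylation of a part of the cells and methylation of 1 allele in every cell cannot be told apart.

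The labelled cell type was set against promoters of fixed gene lists. Of 25 spermatogonial genes, 11 had 12 promoters with enough cytosines, and all 12 were below 20% (median 1.54%, highest 4.81% at Cd9, a surface tetraspanin). As 7704 of all 8465 promoters were below 20%, these low levels say little about the cell type. Of 26 germ-cell genes whose promoters are methylated in body cells, 14 had a promoter in the data. Their median level was 80.6%, with 11 at 70% or above, among them Ddx4, a germ-cell RNA helicase, at 80.2%, Dazl, a germ-cell RNA-binding protein, at 94.9% and Sycp1, of the synaptonemal complex, at 85.5%. Of the others in this list, Piwil2 was at 68.9%, Tdrd1 at 60.7% and Stag3 at 1.17%. In germ cells, promoters such as that of Dazl are known to be free of methylation, so the high levels went against the label, while Stag3 did not. Means over the list ran from 72.8% to 78.8% among the control pools and from 75.2% to 76.0% among the arsenic pools. The part of other cells in the levels described here was not tested. By real-time PCR, the study found Itga6 and Gfra1 expressed more in these cells than in the prospermatogonia it isolated. Sertoli cell genes had 9 promoters, of which 7 were below 20% and 2 were intermediate. The remaining lists had no intermediate promoter: Leydig cell (1 promoter, Nr5a1 at 1.57%), peritubular myoid cell (Des at 16.6% and Myh11 at 1.40%), macrophage (0 promoters with enough cytosines), endothelial (Pecam1 at 92.8%) and DNA methylation enzymes (8 of 9 promoters below 20%, Dnmt3l at 77.4%).

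Stretches of 300 bases from the promoters of Cmtr1, Wfdc9 and Mcts2 show the 3 profiles at the level of the sequence: the edge of a high flank toward the start site, the opposite order, and intermediate levels throughout. They are RefSeq GRCm38.p6 (mm10) sequence on the strand of the gene, 5′ to 3′, and the capitals mark the CpGs read in this data set. The Cmtr1 stretch (chr17:29659764-29660063, plus strand, -831 to -532 from the start site) and the Wfdc9 stretch (chr2:164655335-164655634, minus strand, -668 to -369) overlap no annotated exon. The Mcts2 stretch (chr2:152686848-152687147, plus strand, -300 to -1) overlaps an exon of a noncoding transcript of H13, the gene within which Mcts2 lies.
Cmtr1, step down: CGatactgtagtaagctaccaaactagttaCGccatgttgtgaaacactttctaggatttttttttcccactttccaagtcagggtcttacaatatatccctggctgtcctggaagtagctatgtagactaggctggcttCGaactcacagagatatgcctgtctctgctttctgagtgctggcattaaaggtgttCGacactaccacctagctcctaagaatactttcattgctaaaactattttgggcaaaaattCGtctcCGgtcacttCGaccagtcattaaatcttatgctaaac
Wfdc9, step up: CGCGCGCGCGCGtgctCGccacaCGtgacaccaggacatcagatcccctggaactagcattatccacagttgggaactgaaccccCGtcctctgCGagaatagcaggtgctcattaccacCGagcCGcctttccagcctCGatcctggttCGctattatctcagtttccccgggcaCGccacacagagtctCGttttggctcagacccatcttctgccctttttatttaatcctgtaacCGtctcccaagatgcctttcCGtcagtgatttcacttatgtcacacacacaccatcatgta
Mcts2, uniform: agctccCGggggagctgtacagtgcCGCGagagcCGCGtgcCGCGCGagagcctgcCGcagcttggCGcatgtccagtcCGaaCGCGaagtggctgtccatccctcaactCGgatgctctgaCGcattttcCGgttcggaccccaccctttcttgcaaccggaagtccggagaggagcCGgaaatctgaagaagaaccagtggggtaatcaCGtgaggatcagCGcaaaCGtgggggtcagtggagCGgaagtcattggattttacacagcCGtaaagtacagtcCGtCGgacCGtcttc

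In the Cmtr1 stretch, 14 cytosines were read. The 8 before the boundary averaged 87.5% and the 6 after it 20.2%, the latter lying in the last CpGs of the printed run. In the Wfdc9 stretch the order was the reverse, with 6 cytosines in the alternating CG run at its 5′ end at 0.215% and the next 12 at 86.9%. In the Mcts2 stretch, 47 cytosines in 25 of its 28 CpGs averaged 61.9%, and each lay between 48.1% and 72.3%.

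Each of the 528 promoters was assigned to a profile by the split, with at least 3 cytosines on either side, that explained most of the variance of its cytosine levels. A step was a difference of at least 50 points between the sides that explained at least 60% of the variance. A promoter without a step was called uniform when at least 70% of its cytosines lay between 20% and 80% and the SD over its cytosines was at most 20. By these limits 216 promoters (40.9%) were step down, with the high side upstream, 14 were step up, with the high side at the start site, 113 (21.4%) were uniform and 185 were mixed. The 528 promoters held 10433 cytosines, and 3 pairs of windows overlapped: Peg10 with Sgce, Wfdc9 with Wfdc10, and Snrpn with Snurf, which share 1 window.

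**Figure D1:**
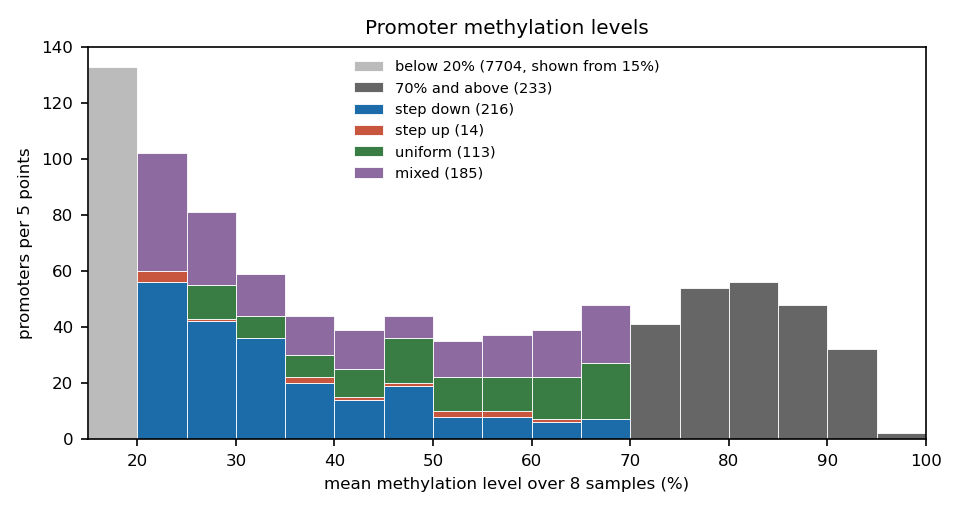
Number of promoters by mean methylation level over the 8 samples (%), in bins of 5 points, coloured by profile; promoters below 20% are drawn from 15% only. Step-down promoters thin out from 56 in the first intermediate bin to 7 in the last, and uniform promoters are spread over the range.

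Levels ran without a gap through both limits. Just outside the lower limit lay Gjd3, a connexin, at 19.9% and Trap1, a mitochondrial chaperone, at 19.98%, and just inside it Krtcap3 at 20.1% and Gpatch1 at 20.1%. At the upper limit, Zfp42 (Rex1), a zinc finger protein of pluripotent cells, at 69.7% and Tm4sf19 at 69.9% were inside, and Akap7 at 70.1% and 1300017J02Rik at 70.4% outside.

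The 216 step-down promoters were free of methylation at the start site and methylated upstream. The upstream side had a median level of 75.3% (quartiles 66.6% to 81.8%) and the start-site side one of 3.90% (1.77% to 9.22%). Their mean level, with a median of 31.6%, was therefore an average of 2 unlike sides. The boundary, taken midway between the last cytosine of one side and the first of the other, had a median position of -418 (quartiles -540 to -339) and lay within 500 bases upstream of the start site in 150 promoters. RRBS placed it only roughly, since the gap without a cytosine at the boundary had a median of 143 bases, was at most 50 bases in 40 promoters and exceeded 300 bases in 69.

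In bins of 100 bases the median level of the step-down promoters declined from 81.5% at -950 to 64.0% at -550, 50.2% at -450, 24.04% at -350 and 6.42% at -250, and was 1.504% at +50. The low side continued past the window. Between the end of the window and 1000 bases downstream, 153 of the 164 promoters with data were below 20% (93.3%). That is near the 93.9% of all promoters. Between -3000 and the start of the window, 65 of 95 were at 70% or above and 6 were below 20%, compared with 781 of 2417 at 70% or above among promoters whose own window was below 20%. Since the upstream side of the members was selected to be high, that difference is a description.

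**Figure D2:**
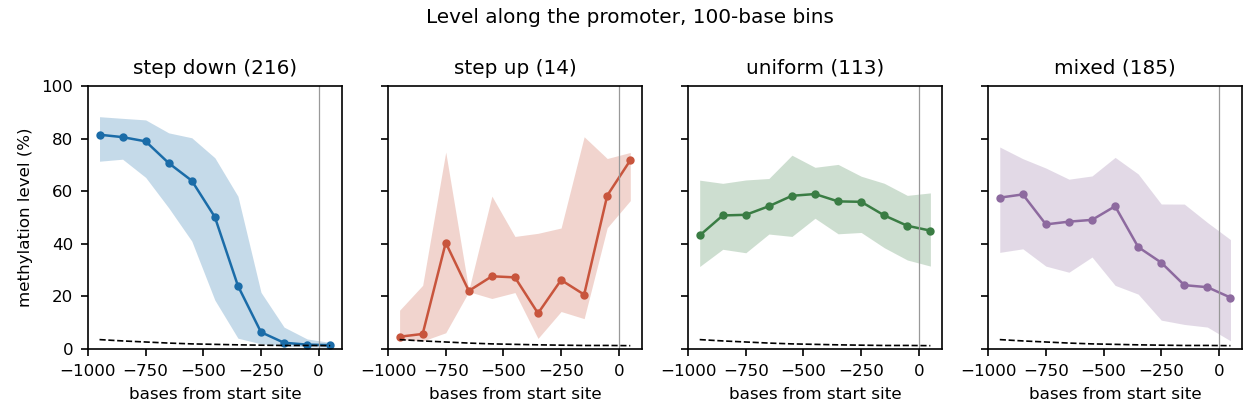
Median methylation level (%, line) and quartiles (band) of the promoters of each profile in 100-base bins from the start site (grey vertical line); the dashed line is the median of all 8465 promoters. Step-down promoters decline from 81.5% to 1.504%, uniform promoters stay between 43.2% and 58.9%, and the step-up panel has as few as 2 promoters in a bin.

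The sequence differed between the sides of the methylation boundary, while no boundary of the sequence itself was located. Per 100 bases, the median was 1.75 CpGs on the upstream side and 5.21 on the start-site side, and the density was higher on the start-site side in 207 of 216 step-down promoters (95.8%). The same split gave 91.1% in promoters below 20%, so most promoters have this order of CpG density. Repeats, as soft-masked in the reference, covered a median of 24.9% of the upstream side and 8.04% of the start-site side. More than 20% of the upstream side was soft-masked in 56.9% of the step-down promoters and in 28.8% of the promoters below 20%. In 39 step-down windows (18.1%) another protein-coding gene overlapped, a smaller share than the 24.8% of promoters below 20% and the 23.9% of all promoters. Whether the upstream side of these 39 belongs to a neighbour's body was not tested.

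Prkar1b, encoding a regulatory subunit of protein kinase A, had the most cytosines of the step-down promoters. Its start site is at position 139150703 of chromosome 5, on the minus strand, and its window overlaps Dnaaf5 on the other strand. The 76 cytosines averaged 83.9% upstream of a boundary between -581 and -466 and 0.698% from there on. The promoter as a whole read 21.7%, 21.6%, 23.6% and 23.6% in the control samples and 23.6%, 21.8%, 22.3% and 22.5% in the arsenic samples. The groups overlapped, and the 8 values ran from 21.6% to 23.6%.

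Cmtr1, which methylates the first nucleotide of capped mRNA, has its start site at position 29660595 of chromosome 17, on the plus strand. Its 72 cytosines averaged 88.3% up to -634 and 3.402% from -574, and the flank upstream of the window was at 95.1%. The window read 25.6%, 25.7%, 27.3% and 27.0% in the control samples and 26.9%, 29.9%, 27.0% and 26.4% in the arsenic samples, which overlap. Gpc2, a cell-surface heparan sulphate proteoglycan, went from 84.9% to 1.24% across a gap from -856 to -266 in which no cytosine was read, and its window overlaps Stag3, a meiotic cohesin subunit, on the other strand. Pvr, the poliovirus receptor (73.9% and 3.71% on the sides), and 4930523C07Rik (78.2% and 7.01%) had the same shape.

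Widely used genes were among the step-down promoters, with start-site sides near 0. Hdac1, a histone deacetylase, had a start-site side of 1.11% and an upstream side of 85.1%, and Smc3, a cohesin subunit, had 1.07% and 75.1%. Both were named after their values were seen. At these promoters the intermediate level came from the upstream cytosines. The start-site stretch from -200 to +100 was below 20% in 164 of the 174 step-down promoters with data there, and in none was it 70% or above. The 164 are 94.3%, near the 95.5% of all promoters.

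The step was also looked for in each sample. Each sample is part of the mean that set the class and the split, so that agreement is partly built in. Of the 216 promoters, 158 met both limits of a step in each of the 8 samples and 20 did so in fewer than 6. The best split fell at the same pair of cytosines in all 8 samples in 121 and in at least 6 samples in 181.

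The 14 step-up promoters were Boll, Csrp1, Wfdc9, Cabp1, Rph3a, Tpi1, Nkpd1, Catsperg1, Pih1d1, Plekhg4, Gcsh, Trf, Abca13 and Tex14. The upstream side had a median of 9.37%, the start-site side one of 65.5%, and the median boundary was at -170. Around the start site 10 of the 12 with data were between 20% and 70% and the other two were above, and 6 of 11 were at 70% or above downstream of the window. They were less steady than the step-down promoters, since 3 of 14 met both limits of a step in all 8 samples and the median step, of 54.5 points, lay close to the limit of 50. Their CpG density was higher on the start-site side in 8 and lower in 6.

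Of the step-up promoters, 0 were in the germ-cell list. Boll, an RNA-binding protein of meiotic germ cells related to Dazl, had 1.03% up to -906 and 52.1% from -58, with no cytosine read between. Tex14, a component of the bridges between germ cells, had 15.4% and 65.9%, and Catsperg1, a subunit of the sperm calcium channel, 2.35% and 64.6%. Trf, encoding transferrin, a product of Sertoli cells and liver, had 4.84% and 65.1%. Its window read 51.6%, 39.7%, 63.2% and 50.1% in the control samples and 52.2%, 58.1%, 54.9% and 60.8% in the arsenic samples, so that the control samples spread around the arsenic samples (difference 5.36 points, adjusted p 0.827, and 1.54 points without control 2 and 9.37 without control 3). Tpi1, a glycolytic enzyme, and Gcsh, of the glycine cleavage system, had their boundaries 20 and 13.5 bases downstream of the start site, so there the high side lay in the transcribed part.

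Plekhg4, a guanine nucleotide exchange factor gene on chromosome 8 (start site 105375227, plus strand), had the most cytosines of the step-up promoters, 34. Cytosines up to -374 averaged 26.8% and those from -352 averaged 78.7%. The promoter read 61.3%, 55.3%, 60.9% and 56.8% in the control samples and 53.8%, 48.7%, 57.4% and 52.5% in the arsenic samples. The highest arsenic sample was above the lower 2 control samples, and the difference of -5.46 points had an adjusted p of 0.827. Rph3a, a synaptic vesicle protein, went from 12.5% to 63.0%.

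Wfdc9 and its neighbour Wfdc10, of a cluster of secreted protease inhibitor genes, show how the profile depends on the direction of reading. Both windows hold the same stretch, from which they read in opposite directions, and Wfdc9 was step up (10.6% to 86.9%, split between -658 and -652) while Wfdc10 was step down (86.7% to 10.6%). The low side of Wfdc9 consisted of the 6 cytosines in the alternating CG run shown with the sequences, at 0.215%, and 1 cytosine farther upstream. That 1 cytosine was far higher, as it brought the side to 10.6%. The flank upstream of the window was at 65.6%, so the low levels were a short dip at the CG run and not a low flank. Wfdc9 read 61.6%, 65.4%, 63.2% and 62.0% in the control samples and 58.0%, 65.3%, 62.9% and 62.5% in the arsenic samples, and the groups overlapped.

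**Figure D3:**
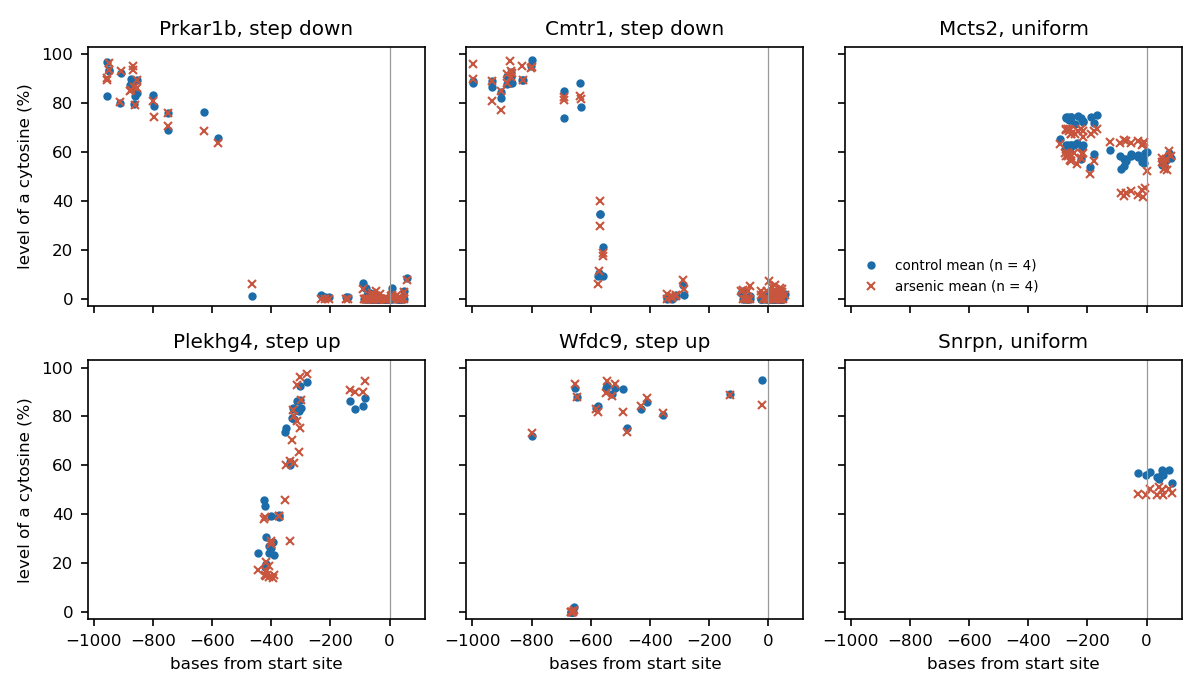
Methylation level (%) of each cytosine in 6 promoters against its distance from the start site (bases), as the mean of the 4 control samples (circles) and of the 4 arsenic samples (crosses). Prkar1b and Cmtr1 drop from above 80% to near 0, and Plekhg4 and Wfdc9 go the other way. At Wfdc9 the low cytosines are those of a short CG run. The cytosines of Mcts2 and Snrpn stay at intermediate levels, with more spread at Mcts2.

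The 113 uniform promoters had intermediate levels at the single cytosine. Their median level was 51.8%, the SD over their cytosines had a median of 14.3 points, and their cytosines spanned a median of 312 bases with a median of 13 cytosines. Around the start site 70 of 74 were between 20% and 70%. Upstream of the window 23 of 43 were at 70% or above, and downstream 36 of 73 were again between 20% and 70% and 25 below 20%.

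Imprinted promoters made up a part of this class. Imprinted genes are expressed from 1 parental allele, and the lists used here took genes of regions that carry maternal methylation. In body cells such a region is methylated on the maternal allele only, and in male germ cells the mark has been erased. Of 31 listed genes, 17 had 19 promoters with enough cytosines. Of the 19, 13 (12 genes) were intermediate and all 13 were uniform, 5 were below 20% (Blcap, Zim1, Grb10, Kcnq1 and a second Inpp5f promoter, at 1.16% to 15.2%) and Fkbp6 was at 90.4%.

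The 13 imprinted promoters had a median of 52.6%. In ascending order they were Mkrn3 at 36.6%, Igf2r at 38.0%, Inpp5f at 46.8%, Gnas at 47.0% and 48.1% for its 2 windows, Usp29 at 48.5%, Snrpn at 52.6%, Zrsr1 at 53.4%, Nnat at 56.4%, Sgce at 59.0%, Peg10 at 59.2%, Mcts2 at 61.0% and Plagl1 at 62.0%. Apart from Igf2r and Inpp5f, neighbours in this order differed by less than their spread over samples, which had a median of 8.005 points (SD, n = 8). Igf2r, the cation-independent mannose 6-phosphate receptor, is a special case, since its promoter is not the region of the gene that receives the maternal mark. The list names genes, and whether the other windows, among them the 2 of Gnas, lie in regions with the maternal mark was not tested.

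Within an imprinted promoter the cytosines were alike. The SD over cytosines was 1.01 points at Nnat, a neuronal proteolipid, 1.18 at Snrpn, a splicing protein, and 1.91 at Usp29, a ubiquitin-specific protease whose window overlaps Peg3, with a median of 5.43 over the 13. Inpp5f, at 14.3, and Mkrn3, at 16.5, were the least even. The 15 cytosines of Nnat spanned only 67 bases, against a median of 284 bases over the 13. The other 100 uniform promoters had a median SD over cytosines of 14.6 points, over a median span of 313.5 bases. They also differed in the ratio of observed to expected CpGs, with a median of 0.646 in the imprinted and 0.360 in the other uniform promoters, and in the level downstream of the window, with medians of 59.1% (n = 11) and 38.7% (n = 62). No test was made, as the profile had used these cytosines.

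Between samples the imprinted promoters were among the most variable of all. Usp29 read 27.7%, 32.3%, 55.9% and 54.5% in the control samples and 74.0%, 32.2%, 73.0% and 38.2% in the arsenic samples. Nnat read 69.4%, 56.0%, 66.3% and 42.4% in the control samples and 33.4%, 46.3%, 58.0% and 79.2% in the arsenic samples. In both promoters the groups overlapped over most of their range, and no sample was highest in both.

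Sgce, a sarcoglycan, read 60.8%, 41.8%, 77.8% and 55.5% in the control samples and 57.8%, 51.4%, 54.1% and 72.6% in the arsenic samples. Snrpn read 68.0%, 53.7%, 44.9% and 57.3% in the control samples and 55.8%, 48.4%, 45.2% and 47.1% in the arsenic samples. Plagl1, a zinc finger transcription factor, read 56.8%, 72.1%, 61.4% and 74.5% in the control samples and 55.1%, 42.2%, 72.8% and 60.9% in the arsenic samples. The groups overlapped in each of them. Mcts2, a retrogene within H13, was steadier, at 60.2%, 55.1%, 66.9% and 69.1% in the control samples and 59.9%, 58.1%, 56.0% and 63.0% in the arsenic samples.

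The spread over samples was 4.76 times what the read counts alone give at the median imprinted promoter and 2.09 times at the median of the other 100 uniform promoters. The counting error took reads at each cytosine as independent. A read can cover several cytosines, so the error can be too small where the cytosines of a promoter are alike. How much of either ratio, or of the contrast between them, comes from this was not tested. The other 100 include Snurf and Commd1, which share sequence or a region with the listed Snrpn and Zrsr1, and Cdkn1c, an imprinted cell cycle inhibitor outside the list, at 37.6%. The mean over the 13 was 49.2%, 49.99%, 59.9% and 51.0% in the control samples and 50.6%, 46.2%, 51.6% and 52.8% in the arsenic samples. Control 3 stood above all other samples, being the highest sample in 5 of the 13 promoters, in 16 of the other 100 uniform and in 84 of the 528. With it the control mean was 52.5% ± 5.001 (SD, n = 4), the arsenic mean 50.3% ± 2.88 and the difference -2.22 points, and without it the control mean was 50.1% and the difference 0.247 points.

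**Figure D4:**
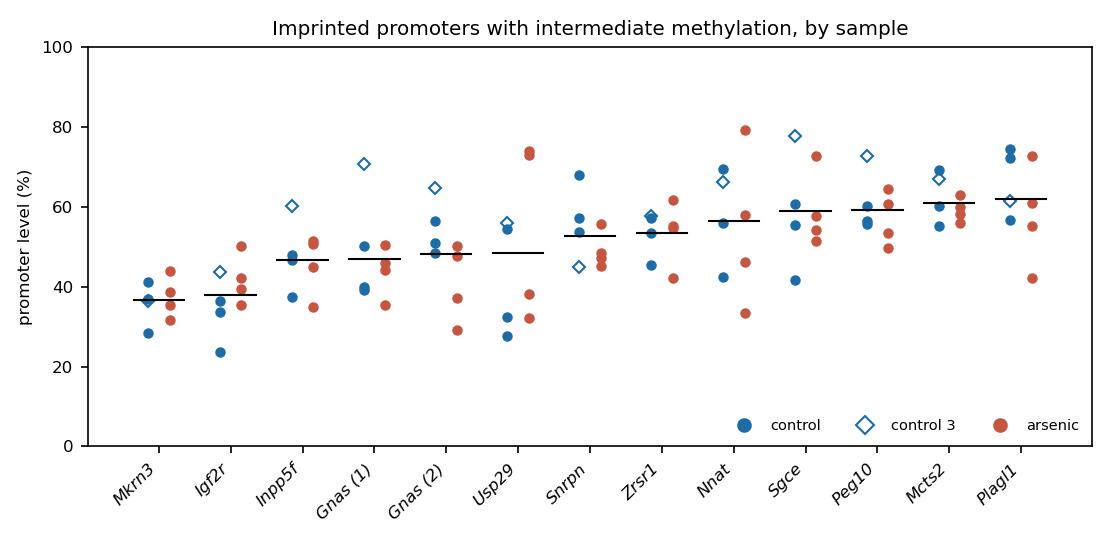
Promoter level (%) of the 13 imprinted promoters in each of the 4 control (circles on the left, control 3 as an open diamond) and 4 arsenic samples (circles on the right), with the mean over 8 samples as a bar. Groups overlap at each promoter, and control 3 is the highest sample of 5.

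Uniform promoters outside the imprinted list included Tdrd1, of the piRNA pathway that silences transposons in germ cells, at 60.7%, and Clpsl2, a colipase-like gene, at 64.1%. Tdrd1 read 51.2%, 56.2%, 65.2% and 61.4% in the control samples and 61.2%, 60.6%, 65.0% and 65.2% in the arsenic samples, which overlap. Commd1, at 56.0%, lies beside Zrsr1 on the other strand. Ankrd11, a chromatin regulator, was at 28.1% and met the limits of the class although its few start-site cytosines averaged 1.16%, since the split that includes them did not reach 50 points. Also uniform, and named after their values were seen, were the meiotic genes Mcmdc2 (46.4%), Hormad2 (54.0%) and Sycp2l (34.3%), the muscle genes Acta1 (39.1%) and Ckm (36.5%), and Lep, encoding leptin, at 69.5%.

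The 185 mixed promoters included weaker forms of the steps. With at least 60% of the variance explained, the upstream side was 30 to 50 points higher in 78 and the start-site side in 17. In 7 the sides differed by 50 points or more without reaching 60% of the variance, and the remaining 83 met none of these limits. The start-site side was the lower one in 137. Piwil2, a piRNA-binding protein of germ cells, belonged here at 68.9%, with 85.4% upstream and 35.8% at the start site, as did Fshr, the follicle-stimulating hormone receptor of Sertoli cells, at 28.2%. Zfp42 had 78.1% and 38.3% on its sides.

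Intermediate promoters were poorer in CpGs than most promoters in the data. By CpG content 16.5% were of the high, 49.8% of the intermediate and 33.7% of the low class, against 56.8%, 36.9% and 6.28% of the 8465. The median ratio of observed to expected CpGs was 0.433, compared with 0.658 in promoters below 20% and 0.325 in those at 70% or above. Low-CpG promoters made up 46.0% of the uniform and 48.1% of the mixed but 15.3% of the step-down promoters. As RRBS reads CpG-rich fragments and 10 cytosines were required, low-CpG promoters were under-represented in all groups.

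Of motifs searched on both strands, TGCCGC, the core of the Zfp57 site that marks imprinted regions, was in 26.7% of the intermediate promoters, 33.6% of the uniform and 41.3% of all 8465. CACGTG, the E-box whose CpG methylation blocks some factors, was in 21.8% of the intermediate promoters and 23.1% of all. The ends of these motifs can share bases. By gene name, 2 of 6 keratin (Krt) and 2 of 4 olfactory receptor (Olfr) promoters were intermediate, against 4 of 168 zinc finger (Zfp) promoters, 0 of 22 Hox promoters and 6.24% of all. The share per chromosome ran from 3.76% on chromosome 12 to 8.02% on chromosome 7.

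Where both strands of a CpG were read, they mostly gave like levels. Over 3158 such CpGs the median difference was 3.18 points, and it was 5.12 points in the uniform promoters. Mcts2 was less even, with a median of 11.2 points over 22 CpGs. Over samples, the SD (n = 8) had a median of 4.65 points in uniform, 3.00 in mixed and 1.99 in step-down promoters. The read counts alone, taken as independent between cytosines, would give 1.99, 1.61 and 1.12.

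Of the 12 promoters with the largest SD over samples, 11 were uniform and 6 were imprinted. Usp29 led with 18.5 points, followed by Sgo2b with 16.1, Gm5134 with 15.4, Nnat with 15.2, Esyt3 with 13.2 and Ccer1 with 12.8. Esyt3, a lipid transfer protein at membrane contacts, was the step-down promoter among them. It read 57.1% in control 3 and 18.2% to 24.03% in the other 7 samples.

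The design asks whether arsenic in pregnancy changed these promoters. No intermediate promoter passed. In the quasi-binomial fit at all 8465 promoters, 0 of the 528 had an adjusted p of at most 0.01 with a difference of at least 10 points (background 0%) and 0 had one of at most 0.05 (background 0%). At an unadjusted p under 0.05 there were 26, or 4.92%, against 5.55% of all promoters, and limma called 0 at the adjusted limits and had 4, or 0.758%, at an unadjusted p under 0.05, against 5.61% of all promoters.

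Differences were small. The median of arsenic minus control was -0.230 points over the 528 and -0.0462 over all promoters, and it was 0.0361 over the 528 without control 3. The arsenic mean was the lower one in 285 of 528 (54.0%, compared with 52.3% of all promoters). The means differed by under 2 points in 344 (65.2%, against 64.8% of promoters at 70% or above and 89.6% of all promoters). They differed by 10 points or more in 6 (1.14%), which were the only such promoters among all 8465 (0.0709%). Between samples, the median SD (n = 8) was 2.78 points in intermediate promoters, 2.82 in those at 70% or above and 0.952 in those below 20%. Relative to the counting error the order differed, with median ratios of 1.91, 1.95 and 2.19. The larger SD was thus not particular to intermediate promoters. By profile, the control and arsenic means were 34.8% ± 0.578 and 34.7% ± 0.151 in step-down, 50.4% ± 1.08 and 50.1% ± 0.799 in uniform, 40.7% ± 0.756 and 39.9% ± 1.05 in step-up, and 41.7% ± 0.466 and 41.1% ± 0.411 in mixed promoters (SD, n = 4 pools each). In step-down promoters the difference was 0.299 points on the upstream side, but -0.0431 without control 2 and 0.649 without control 3. On the start-site side it was -0.321 points, and -0.200 without control 3.

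**Figure D5:**
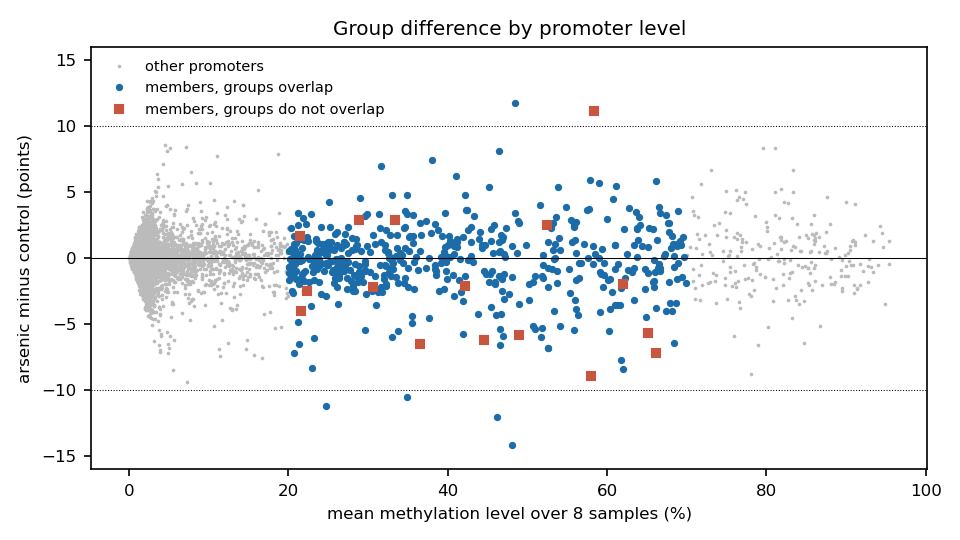
Difference of group means (arsenic minus control, points) against the mean level over the 8 samples (%) for all 8465 promoters; dotted lines mark 10 points. Of the intermediate promoters (blue, and red where groups do not overlap) 6 lie beyond the lines, and the 16 with separate groups lie among the rest.

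The groups did not overlap at 16 intermediate promoters. Arsenic was lower at 11 of them, 2.08% of the 528 against 1.82% of all promoters, and higher at 5, 0.947% against 1.26%. Both shares were near the background. At each of the 16 the exact permutation test over samples (two-sided) gave 0.0286, the smallest p that 4 against 4 allows. Groups that do not overlap always give this value, so it was fixed by the selection and adds no evidence. Adjusted p-values of the quasi-binomial fit were 0.806 or more.

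Parn, a poly(A)-specific ribonuclease (chromosome 16, start site 13668170, minus strand), had the largest difference of these. It read 50.8%, 54.2%, 52.8% and 53.4% in the control samples and 65.9%, 63.2%, 65.8% and 61.0% in the arsenic samples, over 12 cytosines. The arsenic samples were all higher, by 11.2 points on average (adjusted p 0.806). Higher by 1.64 to 2.88 points were Fam110b, 2610528J11Rik, Pced1b and Klhl22, a substrate adaptor of a ubiquitin ligase. At Fam110b the direction turned when reads rather than cytosines were weighted equally, to -7.44 points, and this was the only one of the 16 where it did. Pced1b read 25.8%, 27.1%, 28.2% and 28.4% in the control samples and 34.0%, 29.2%, 28.6% and 29.2% in the arsenic samples, and its difference of 2.88 points was 1.63 points without arsenic 1. At 2610528J11Rik it was 2.53 points, 1.67 points without arsenic 4 and -3.81 points, with the direction turned, at a coverage of at least 20.

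Lower in arsenic were Ptpdc1, Topors, Them6, Ccm2l, Tmem63c, Cse1l, Arhgef2, Boll, Ginm1, Ddr1 and Rapgef4, by -1.97 to -8.98 points. Ptpdc1, a protein phosphatase, read 67.3%, 68.6%, 68.4% and 67.6% in the control samples and 64.8%, 60.9%, 60.2% and 63.4% in the arsenic samples. All arsenic samples were lower, by -5.66 points on average (adjusted p 0.806). Boll read 39.3%, 41.0%, 39.2% and 39.8% in the control samples and 30.8%, 34.3%, 31.4% and 36.7% in the arsenic samples, a difference of -6.51 points (adjusted p 0.827).

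Them6, a thioesterase family gene, read 51.4%, 52.7%, 51.2% and 52.2% in the control samples and 48.0%, 42.1%, 45.6% and 48.4% in the arsenic samples. Ccm2l, an endothelial signalling gene, read 69.0%, 57.6%, 61.6% and 61.8% in the control samples and 55.02%, 56.1%, 45.6% and 57.4% in the arsenic samples. Its groups were only just apart, at 57.6% and 57.4%, although its difference of -8.98 points was the largest of the 11. Topors, a ubiquitin and SUMO ligase, read 30.1%, 32.6%, 32.3% and 32.0% in the control samples and 29.96%, 28.6%, 29.7% and 29.9% in the arsenic samples.

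The means of 6 promoters differed by 10 points or more, and only at Parn were the groups separate. A Gnas window (start site 174297859 on chromosome 2), of the imprinted locus of a G protein subunit, read 48.5%, 51.0%, 64.7% and 56.5% in the control samples and 50.2%, 29.1%, 37.1% and 47.7% in the arsenic samples, a difference of -14.2 points (exact permutation p 0.0571, adjusted p 0.827). The other Gnas window read 39.0%, 50.2%, 70.8% and 39.8% in the control samples and 50.6%, 44.3%, 45.8% and 35.5% in the arsenic samples. In both windows control 3 was the highest sample.

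At 3 of the remaining promoters beyond 10 points the difference shrank by more than 1.5 times when a single sample was left out. Esyt3 differed by -11.2 points, and by -2.28 points without control 3. Sgo2b, a shugoshin family gene, differed by -12.0 points, and by -4.62 points without control 2. Usp29 differed by 11.8 points, and by 5.22 or 5.57 points without arsenic 1 or arsenic 3. Ndst1, a heparan sulphate sulphotransferase, differed by -10.6 points, and its control samples ran from 28.2% to 48.0% while its arsenic samples ran from 26.7% to 33.1%.

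At the level of single cytosines, differentially methylated cytosines (DMCs) were taken at an adjusted p of at most 0.01 and a difference of at least 10 points in a logistic fit of the summed reads, which does not take the spread between pools into account. The 10433 cytosines of the intermediate promoters held 42 hypoDMCs, lower in arsenic (0.403%, background 0.323% of all cytosines), and 26 hyperDMCs (0.249%, background 0.228%). Together that was 0.652% of them. The share was 0.983% of the 4069 cytosines that were themselves at 20% to 70%, compared with 0.957% of all autosomal cytosines at that level. It thus lay close to that of other cytosines of like methylation.

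Most DMCs in the intermediate promoters were scattered. Mapk1ip1l had 7, 6 of them hypoDMCs, and read 24.4%, 32.8%, 19.01% and 21.9% in the control samples and 15.5%, 17.97%, 18.7% and 19.98% in the arsenic samples, a difference of -6.50 points with overlapping groups, and of -3.76 points without control 2. Cmc1, a mitochondrial assembly factor, had 3 hyperDMCs and Plekhg4 had 3 hypoDMCs. The profile itself was mostly the same in both groups. In 459 of 528 promoters the control samples alone and the arsenic samples alone gave the same class, that of all 8 samples. Taken singly, 493 kept it with the control samples and 493 with the arsenic samples. The counts of 493 compare a group with a mean that includes it, so that agreement is partly built in.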

How the data were processed

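RRBS libraries of 4 control and 4 arsenic pools were analysed. The deposited counts, made by the authors, give for each cytosine and sample the reads with C, the reads with T and their sum, the coverage, on mm10. The submitters' processing notes name Trim Galore 0.6.5, Bismark 0.22.3 and methylKit 1.22.0. A cytosine is listed where all samples have a coverage of at least 10, and the strands of a CpG are listed separately. Of the cytosines, 2.56% had even C and T counts in all 8 samples. The table gives no molecular identifiers, so errors from read counts cover counting only, with reads at each cytosine taken as independent. Group labels came from the sample titles, and whether pools of a group came from separate litters is not given in the sources used here.

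Levels, profiles, flanks (from -3000 to 1000 around the start site, outside the window) and CpG content were computed from the deposited counts and the RefSeq GRCm38.p6 annotation with Python 3.11.15, numpy 2.4.6, pandas 2.3.3, scipy 1.17.1, pysam 0.24.0, samtools 1.23.1 and matplotlib 3.10.9. Overlapping start sites of a gene were represented by 1 window. Group differences were tested by a quasi-binomial logistic regression of the reads summed per promoter, with an F test on 6 residual degrees of freedom and Benjamini-Hochberg adjustment over 8465 promoters, and adjusted p-values in the report are from that fit. Single promoters were compared by a two-sided exact permutation test over 70 assignments. Single cytosines were tested by a binomial likelihood ratio on summed reads, adjusted over 2130064 cytosines. The alternatives were limma 3.58.1 (R 4.3.3) on the log2 of methylated over unmethylated reads, each plus 1, a binomial test, a replicate block whose overdispersion was kept at 1 or more, a coverage of at least 20, other step limits, summed strands, weighted means, every start site, at least 20 cytosines, and leaving out each sample. The statistics were tested on simulated data.

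The promoters named are the 5 with the most cytosines of each step and uniform class, the 4 lower and 4 higher with the lowest p among those with separate groups, every member in a gene list, and those next to the limits; all others were named after their values were seen. Sequences were to come from the first promoter of each class with a stretch upstream of the start site. As some had no 300-base stretch free of UTR with at least 3 cytosines on both sides, the next one was used. Members and gene lists were chosen with earlier results of these data known. The lists comprise maternally methylated imprinted, germ-cell, spermatogonial, Sertoli, Leydig, peritubular myoid, macrophage, endothelial and DNA methylation enzyme genes. Some promoters are not reported here.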

Additional observations from a re-analysis of the deposited data

Results flagged for a closer look

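A sample stood apart from the other 3 of its group, by the gap to the nearest over the range of the group, in 9 of 118 groups of 4 values examined. Chance gives about 1 in 20 groups, or 5.9 here. For the 13 imprinted promoters the control mean was highest in control 3, at 59.9%, with the others at 49.2% to 51.0%. Mixed promoters were also highest in control 3 among the control samples, at 42.4%, with the others at 41.4% to 41.5%. Among the arsenic samples, uniform promoters were lowest in arsenic 2, at 48.9%, with the others at 50.5% to 50.6%. Step-up promoters were lowest in arsenic 1, at 38.3% over the window (others 40.1% to 40.5%) and 66.8% on the start-site side (others 69.0% to 69.2%). Of single promoters, Pvr had a highest control value of 21.0% and Rph3a one of 23.6%, Topors had a lowest arsenic value of 28.6%, and Pced1b a highest arsenic value of 34.0%.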

How the results depend on the processing

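With a coverage of at least 20 there were 309 intermediate promoters, of which 121 were step down, 7 step up, 67 uniform and 114 mixed, and 11 of them, against 260 of all promoters, had an unadjusted p under 0.05. Groups were then apart at 7 with arsenic lower (2.27%, against 1.93% of all promoters) and 2 with arsenic higher (0.647% against 1.15%), and the difference at 2610528J11Rik turned to -3.81 points. With reads weighted equally, a setting chosen for single promoters after seeing the data, the difference at Fam110b turned to -7.44 points. Steps of 40 points and 50% of the variance gave 29 step-up and 115 mixed promoters, and steps of 60 points and 70% gave 4 step-up promoters. limma gave 4 members (0.758%, against 5.61% of all promoters) at an unadjusted p under 0.05. The binomial test without overdispersion, which does not see the spread between pools, called 5 members and 5 of all promoters at 10 points, 179 and 3066 at an adjusted p of at most 0.05, and 232 and 3769 at an unadjusted p under 0.05. Parn was among those past the limit (adjusted p 9.69e-07).

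The replicate numbers did not pair the samples: deviations from the group means correlated at -0.0383 to 0.0436 between same-numbered samples. The replicate block gave 0 calls, with 19 members and 417 promoters at an unadjusted p under 0.05. With overdispersion below 1 allowed, an alternative chosen after seeing the data, the replicate block had 1 member (Bpi, -1.55 points) and 44 promoters at an adjusted p of at most 0.05.

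Leaving out each sample in turn, promoters with groups apart numbered 13 to 29 with arsenic lower (29 without control 1), 2.46% to 5.49% against 3.07% to 3.64% of all promoters, and 8 to 18 with arsenic higher (18 without control 3), 1.52% to 3.41% against 2.14% to 2.85%, and 0 to 2 of all promoters had an adjusted p of at most 0.05. HyperDMCs in the members numbered 17 to 38 (17 without control 2). The median difference ran from -0.385 to 0.0361 points, and it was above 0 without control 3. Over all settings, 181 summary values moved by no more than 1.5 times, for counts, or by less than 1 SD, for the median difference, and 38 moved more. A change of direction was not part of this rule. Of the levels of single promoters 27 moved, all under the higher coverage or summed strands.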
